A study of Mus musculus with 4 samples.

Results

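The cells described here are non-cycling muscle cells with an intermediate level of Myog, the gene of myogenin, in a culture of mouse muscle stem cells. They were chosen by measured values. Cells were kept when their barcode occurred in each of the 4 files, with 1000 or more genes and less than 10% mitochondrial counts on average. Levels are in CPM, the unique molecular identifier (UMI) counts of a gene per 1000000 counts of the cell or group. Members had at least 1000 CPM of the nuclear RNA Malat1, under 75 CPM of the proliferation genes Mki67 and Top2a together, and Myog from 400 to under 1500 CPM. Of 5481 kept cells, 236 met the rule, or 4.31% (95% exact binomial interval 3.78% to 4.88%). They made up 8.44% of the 2795 non-cycling cells and were compared with 800 non-cycling cells under 400 CPM of Myog (Myog-low) and 1759 at 1500 CPM or more (Myog-high).

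The culture came from skeletal muscle of MyoD-KI mice, was grown for 5 days in a serum-rich growth medium and was sorted for MyoD-tdTomato high cells. All cells thus carry the knock-in and share 1 sort gate, and the reporter allele, strain and age are not described further in the labels. The 4 replicates hold the same barcodes: 5944 of 5985 (99.3%) were in all 4 files, and every member correlated better with its own barcode than with other barcodes in each pair of files (median Pearson r of 0.791 to 0.798 against 0.694 to 0.698). The files were therefore counted as 1 sample, no test was run, and each level is a mean over the files with an interval for counting error at the mean count of 1 file. UMI totals ranged from 62627341 to 68898900 per file.

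Myogenin is a basic helix-loop-helix transcription factor that muscle precursors switch on when they commit to differentiate. It acts with MyoD, the product of Myod1, at DNA motifs called E-boxes, and cooperates with MEF2 proteins. Precursors leave the cell cycle with the help of the inhibitor p21, encoded by Cdkn1a, and later make contractile proteins and fuse into myotubes.

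The windows of 250 bases before a RefSeq start (GRCm38.p6) are shown for Myog, which defines the cells, for Hes6, a myogenic cofactor gene that was higher with Myog, and for Nos1, the named gene with the highest level relative to both other groups. Capitals mark the E-box CANNTG, which reads as an E-box on both strands. The Myog window lies at chr1:134289754-134290003 on the plus strand, the Hes6 window at chr1:91414039-91414288 on the minus strand and the Nos1 window at chr5:117866589-117866838 on the plus strand.
Myog: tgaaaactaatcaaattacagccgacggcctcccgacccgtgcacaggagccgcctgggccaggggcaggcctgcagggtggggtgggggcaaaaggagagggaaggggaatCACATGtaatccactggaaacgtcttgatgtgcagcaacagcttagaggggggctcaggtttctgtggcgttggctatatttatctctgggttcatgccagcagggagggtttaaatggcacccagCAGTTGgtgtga
Hes6: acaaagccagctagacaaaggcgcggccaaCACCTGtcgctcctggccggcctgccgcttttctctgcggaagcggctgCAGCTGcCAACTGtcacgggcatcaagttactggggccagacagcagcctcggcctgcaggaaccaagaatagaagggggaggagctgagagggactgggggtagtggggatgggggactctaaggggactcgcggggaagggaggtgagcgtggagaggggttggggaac
Nos1: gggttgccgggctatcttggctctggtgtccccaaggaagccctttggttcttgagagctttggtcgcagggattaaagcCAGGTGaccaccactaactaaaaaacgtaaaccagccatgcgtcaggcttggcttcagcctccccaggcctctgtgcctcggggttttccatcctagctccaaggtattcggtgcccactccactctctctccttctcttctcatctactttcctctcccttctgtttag
The Myog window held 2 E-boxes, CACATG and CAGTTG. In the Hes6 window there were 3, among them CAGCTG, while the other Hes6 window in the table, at chr1:91413223-91413472 on the minus strand, held 1, CAGCTG. The Nos1 window held 1, CAGGTG. It lies inside the span of the gene given below, before an internal start and not at the outer end of the gene. At least 1 E-box was present in 66.2% of all 32851 windows in the table and CAGCTG in 13.0%, so a match of this kind is common. Of the 10 genes named below as highest relative to both other groups, 8 matched the table. Of these, 6 held an E-box in at least 1 window, beside 69.3% of all genes.

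The rule genes are given as a description only. Myog stood at 964 CPM in the members, 87.5 CPM in Myog-low and 4155 CPM in Myog-high cells. Within single files, 192 to 198 of the 236 members (81.4% to 83.9%) fell inside the Myog range. Of the members, 140 had no UMI of Mki67 or Top2a. Just inside the limits were 14 cells from 400 to 450 CPM and 14 from 1400 to 1500 CPM, and just outside them 18 from 350 to 400 CPM and 23 from 1500 to 1600 CPM. At the cell cycle limit, 26 members had 50 to 75 CPM of Mki67 and Top2a and 16 cells of the same Myog range had 75 to 100 CPM. Median depth was 11142 UMIs per file in the members, 9082 in Myog-low and 11107 in Myog-high cells, with 4.06%, 4.03% and 4.07% mitochondrial counts.

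The label of these cells as being at the onset of Myog holds for only part of them. The summed level of 30 sarcomere genes, which encode the contractile apparatus, had a median of 5172 CPM per cell in Myog-low, 14173 in the members and 45575 in Myog-high cells. Members covered most of that span, with a 5th percentile of 6336 CPM and a 95th of 88910 CPM. In 120 of 236 members (50.8%) the sum lay above the 95th percentile of Myog-low cells, and in 127 (53.8%) above the 5th percentile of Myog-high cells. At or above the 25th percentile of Myog-high cells, 27841 CPM, were 47 members (19.9%, with an exact binomial interval reaching up to 25.6%). These 47 cells are called sarcomere-rich below and the other 189 sarcomere-poor. The limit divides a range and not cell types: 17 members lay between 0.8 times the limit and the limit, and 16 between the limit and 1.25 times it. It was set after the data were seen.

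**Figure D1:**
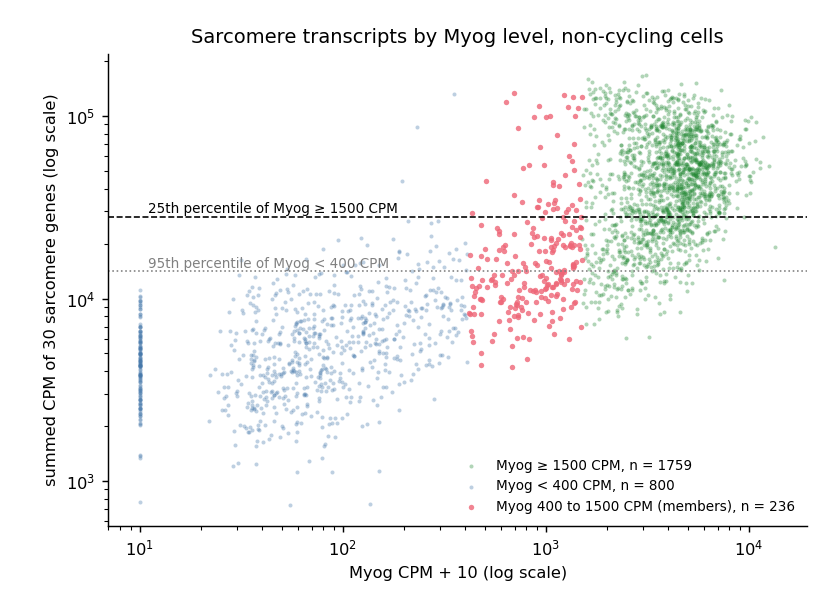
Each point is 1 non-cycling cell, with Myog CPM plus 10 on the horizontal log axis and the summed CPM of 30 sarcomere genes on the vertical log axis. The 236 members (red) lie between 800 Myog-low cells (blue) and 1759 Myog-high cells (green), and 47 of them lie at or above the dashed line.

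The sarcomere-rich members held 26.6% of the members' UMIs but 82.3% of those of Acta1 (skeletal actin), 87.3% of Myh3 (embryonic myosin), 89.2% of Myl4 and 95.8% of Tcap (a titin cap protein). These are genes of the list whose sum chose the cells. Others of that list were spread more evenly, with 51.3% of Ttn, 40.6% of Neb, 39.7% of Des, 37.3% of Tpm1 and 27.3% of Mybpc1 in sarcomere-rich members. The same cells held 86.2% of Mef2c, 54.6% of Mymk and 45.7% of Cdkn1a, and 19.8% of Myod1. Their median depth was 14837 UMIs per file against 10793 in sarcomere-poor members, and their median Malat1 was 13657 against 8447 CPM. Among the highest 5% of doublet scores were 7 of the 47 (14.9%) and 9 of the 189 (4.76%), beside 0.5% of Myog-low and 2.73% of Myog-high cells. Without these high scores 220 members remained, and the median sarcomere gene was at 42.1% of its Myog-high level in place of 45.3%. The part of depth in this split was not tested.

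Myod1 (ENSMUSG00000009471, chromosome 7, 46376474 to 46379099, GENCODE M21 on GRCm38), the gene behind the sort, was higher in the members than in Myog-low cells. It stood at 729.8, 729.5, 756 and 735 CPM in the 4 files, a mean of 738 CPM (706 to 770). Myog-low cells had 403, 417, 409 and 409 CPM, and Myog-high cells 592, 600.2, 602 and 607 CPM. The members lay above both groups in every file, with no overlap. Here and below, the files hold the same cells. Their spread within a group thus reflects counting error, and separation between groups in every file is not replication. The log2 ratio of CPM plus 1 was 0.85 over Myog-low (0.77 to 0.93) and 0.30 over Myog-high cells (0.23 to 0.36). However, the median of all 10773 genes compared was itself 0.21 higher in the members than in Myog-high cells, and with median-ratio size factors the second value was 0.036. The sarcomere-poor members had 806 CPM and the sarcomere-rich 549 CPM.

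Along Myog, Myod1 went from 340 CPM in the 563 cells under 100 CPM of Myog to 762 CPM in the 68 members from 400 to 700 CPM. It was 727 CPM and 730.4 CPM in the 2 higher bins of members, and 594 CPM in the 932 cells of 4000 CPM or more. In the median cell it was 682, 753 and 730.1 CPM in the 3 bins of members and 567 CPM in the top bin. On the CPM scale the 3 bins of members thus differed little from each other.

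Cdkn1a (ENSMUSG00000023067, chromosome 17, 29090976 to 29100727) lay between the groups. Its level in the members was 1029, 1036, 1053 and 1016 CPM, against 436, 425, 441 and 432 CPM in Myog-low and 2497, 2510.0, 2501 and 2506 CPM in Myog-high cells. The 3 sets of files were fully separate. Log2 ratios were 1.25 (1.18 to 1.32) over Myog-low and -1.28 (-1.33 to -1.22) over Myog-high cells. Sarcomere-poor members had 764 CPM, a log2 ratio of 0.82 over Myog-low cells, and sarcomere-rich members 1778 CPM. Over the 3 bins of sarcomere-poor members, Cdkn1a was 654, 763 and 848 CPM.

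**Figure D2:**
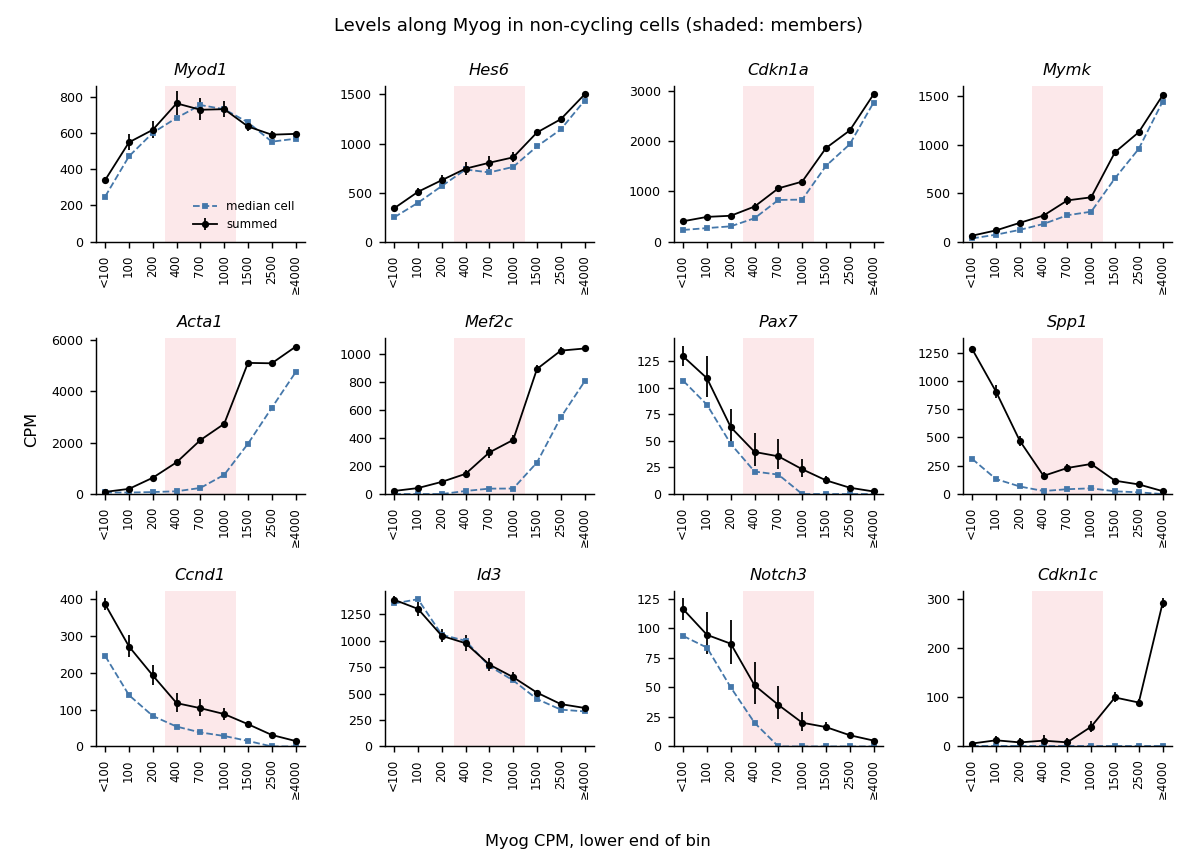
Levels of 12 genes in CPM (vertical axes) in 9 bins of Myog (horizontal axes, lower end of each bin), for non-cycling cells; black, summed UMIs with 95% counting intervals; blue, the median cell; shading, the 3 bins of members. Myod1 is flat across the members at 727 to 762 CPM while Acta1 goes from 1234 to 2730 CPM when summed and from 107 to 746 CPM in the median cell.

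Among other myogenic regulators, Mef2a stood at 407, 883 and 1221 CPM in Myog-low cells, members and Myog-high cells. Its relative Mef2c stood at 33.8, 302 and 1008 CPM, but was 56.5 CPM in sarcomere-poor and 978 CPM in sarcomere-rich members. Myf6, the latest of the myogenic factors in the muscle lineage, was 3.02 CPM in sarcomere-poor and 39.4 CPM in sarcomere-rich members, beside 13.1 CPM in Myog-high cells. The cofactor gene Eya4 differed less across the groups, at 550.0, 642 and 506 CPM. Of 11 regulators compared, Myog left out, 3 were at least 2-fold higher and 1 at least 2-fold lower than in Myog-low cells. Across all 9998 genes compared, 329 (3.29%) were at least 2-fold higher and 489 (4.89%) at least 2-fold lower. Without the sarcomere-rich members, 185 (1.88%) and 389 (3.96%) were, and none of the regulators was at least 2-fold higher. The highest of them was just under that limit, at a log2 ratio of 0.99. With median-ratio size factors 1 of 10 passed, beside 193 of all 9829 genes.

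Genes of stem and progenitor cells were lower in the members only in part. Pax7 (chromosome 4, 139737062 to 139833528), the transcription factor of muscle stem cells, was at 31.7, 33.2, 31.2 and 26.7 CPM in the members. In Myog-low cells it was at 119, 117, 123 and 110.3 CPM, and in Myog-high cells between 4.57 and 6.10 CPM. Each file of the members lay between the other groups, 3.74-fold below Myog-low and 4.89-fold above Myog-high cells. At 5000 UMIs per cell, Pax7 was detected in 14.0% of 224 members (9.70% to 19.2%), 40.5% of Myog-low and 2.30% of Myog-high cells, and in 24.6%, 58.3% and 5.13% without thinning. Median depths of the cells thinned were 11401, 9624 and 11206 UMIs per file, and 12 members were too shallow to be used. Myf5, an early myogenic factor, was at 114, 52.2 and 10.6 CPM, the adhesion receptor gene Vcam1 at 29.8, 13.2 and 3.21 CPM and Met, the receptor of hepatocyte growth factor, at 79.7, 48.4 and 14.4 CPM. Fgfr4 did not follow, at 117, 118 and 51.5 CPM. Of 10 listed genes compared, 4 were at least 2-fold lower than in Myog-low cells and 0 higher, with a median log2 ratio of -0.54, and without the sarcomere-rich members 3 and 0 were.

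Notch signalling keeps muscle stem cells undifferentiated through targets of the Hes and Hey families. The receptor gene Notch3 was at 109, 32.1 and 8.53 CPM in Myog-low cells, members and Myog-high cells, and the target Heyl at 32.9, 11.6 and 2.66 CPM. Hes1, another target, was at 70.3, 17.0 and 9.38 CPM, so that the members were 3.99-fold below Myog-low but 1.72-fold above Myog-high cells. The ligand gene Jag1 was at 6.88, 1.63 and 0.485 CPM. Opposite to these, the ligand gene Dll1 was at 12.0, 28.4 and 25.3 CPM and the pathway's transcription factor gene Rbpj at 68.2, 138 and 192 CPM. Hes6 was at 404, 815 and 1348 CPM. Of 14 genes compared, 3 were at least 2-fold higher and 5 at least 2-fold lower than in Myog-low cells; without the sarcomere-rich members the counts were 1 and 5 of 13. Lfng, which encodes a glycosyltransferase acting on Notch, was 15.9 CPM in the members and 4.55 CPM in Myog-high cells.

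Id proteins bind the partners of MyoD and hold it inactive. Id3 was at 1326, 767 and 402 CPM and Id1 at 591, 487 and 328 CPM in Myog-low cells, members and Myog-high cells, and the partner gene Tcf12 at 390.2, 421 and 316 CPM. Snai2, a repressor that competes for E-boxes, was at 48.1, 21.5 and 4.98 CPM.

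Besides Cdkn1a, genes of cell cycle exit varied: of 16 compared with Myog-low cells, 4 were at least 2-fold higher and 1 lower, and without the sarcomere-rich members 3 and 1 were. Gadd45a, a growth arrest gene, was at 57.9, 174 and 266 CPM and the retinoblastoma gene Rb1 at 56.0, 135 and 249 CPM. Both were at least 2-fold higher than in Myog-low cells also without the sarcomere-rich members, at 157 and 120.2 CPM. Cdkn1c, which encodes p57, was at 7.36, 24.5 and 192 CPM, or 7.59-fold lower in the members than in Myog-high cells. Few cells carried it: the median cell was at 0 in all 3 groups, and at 5000 UMIs Cdkn1c was detected in 4.58% of members and 17.0% of Myog-high cells. Sarcomere-rich members held 61.3% of the members' Cdkn1c UMIs, and the level was 11.8 CPM in the lowest and 40.3 CPM in the highest bin of members. The D cyclin genes, which drive entry into S phase, were at 342, 99.7 and 28.5 CPM for Ccnd1 and 59.2, 18.7 and 3.41 CPM for Ccnd2, whereas Ccnd3 stood at 333, 345 and 365 CPM. Among 10 G1 cyclins and kinases, 4 were at least 2-fold lower than in Myog-low cells and 0 higher. In the DNA replication list, none of 18 genes differed 2-fold from Myog-low cells, with a median log2 ratio of -0.31 beside -0.08 for all genes. Against Myog-high cells 9 of these 18 were at least 2-fold higher (6 with median-ratio size factors). Over all 10773 genes of that comparison 7.05% were higher and 3.77% lower.

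The list of membrane genes of undifferentiated cells had a median log2 ratio of -2.05 over Myog-low cells. Of 10 listed membrane genes, 8 were at least 2-fold lower in the members, also without the sarcomere-rich ones, and the 8 compared with Myog-high cells were all at least 2-fold higher than there. All 10 were at least 2-fold lower in Myog-high than in Myog-low cells. The list was chosen with earlier results of these data known, so levels in between are in part fixed by that choice. Aqp5, a water channel gene, was at 65.8, 6.96 and 1.79 CPM and the cadherin gene Cdh6 at 23.3, 1.60 and 0.712 CPM. Cdh11, another cadherin gene, was at 317, 176 and 43.6 CPM and the receptor gene Ror1 at 281, 150.0 and 38.9 CPM. The secreted phosphoprotein gene Spp1 was at 1113, 230 and 61.7 CPM, and Mgp, encoding matrix Gla protein, at 1089, 199 and 73.7 CPM. Of 15 matrix and secreted genes, 5 were at least 2-fold lower than in Myog-low cells and 0 higher, with a median of -0.60. The 10 lowest genes relative to Myog-low cells were Cdh6, Aqp5, Gucy1a1, Csmd1, Bcl2, Edil3, Cyyr1, Pgf, Bmp6 and Angpt1. Bcl2, which encodes a survival protein, was at 11.5, 0.721 and 0.423 CPM, or -2.89 on the log2 scale over Myog-low cells (-3.55 to -1.76) at its low count.

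Fibroblast and pericyte lists were read beside these genes, since they share some of them. Their sums were 129 and 51.0 CPM in the members, 274 and 147 CPM in Myog-low, and 55.9 and 17.6 CPM in Myog-high cells. The fibroblast sum came almost wholly from Col3a1 (111 CPM) and Ly6a (17.3 CPM), while Pdgfra was at 0.174, Dcn at 0.63 and Lum at 0 CPM in the members. Kcnj8 of the pericyte list was also at 0. Endothelial, immune, Schwann cell and adipocyte markers summed to 1.34, 0.531, 1.25 and 0 CPM in the members.

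Most contractile genes listed were higher in the members. Of 28 sarcomere genes compared with Myog-low cells, 26 were at least 2-fold higher and 0 lower, with a median log2 ratio of 2.72. In sarcomere-poor members 17 of 27 were at least 2-fold higher and 1 lower, with a median of 1.11. The list chose these cells, so that last value describes the choice as well. Acta1 (chromosome 8, 123891769 to 123894751) was at 2161, 2206, 2182 and 2183 CPM in the members, 170.0 to 183 CPM in Myog-low and 5387 to 5442 CPM in Myog-high cells. The files of the 3 groups did not overlap, but sarcomere-poor members had 525 CPM and sarcomere-rich 6760 CPM. Ttn, encoding the giant protein titin, was less uneven, at 829, 3875 and 6351 CPM over the 3 groups and 2569 CPM in sarcomere-poor members. Mybpc1, a myosin-binding protein gene, was at 488, 1034 and 958 CPM, and at 1024 CPM in sarcomere-poor members. Casq2, which encodes a calcium store protein, was at 210.1 CPM in sarcomere-rich members and had too few counts for comparison in sarcomere-poor members and Myog-low cells, at 3.68 and 3.62 CPM.

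The gene with the highest ratio over Myog-low cells was Ablim3, an actin-binding LIM protein gene, at 1.74 and 52.1 CPM, a log2 ratio of 4.29. It was followed by Myh1, Smpx, Arpp21, Smim5, Lmod2, Myh3, Casq2, Filip1 and Csrp3. Myh1, Myh3 and Myh8 are similar in sequence and may share reads. Without the sarcomere-rich members, the log2 ratio was 2.59 for Arpp21, a gene of a cyclic AMP-regulated phosphoprotein, 2.32 for Filip1 and 2.04 for Lmod2. It was 1.26 for Myh3, 1.11 for Smpx and 0.91 for Myh1, while Ablim3, Smim5, Casq2 and Csrp3 were too rare in sarcomere-poor members to be compared.

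Genes that assemble or couple the contractile apparatus were higher in part. Of 14 sarcomere assembly genes, 11 were at least 2-fold higher than in Myog-low cells, and 7 without the sarcomere-rich members. The chaperone gene Unc45b was at 2.81, 35.9 and 117 CPM and the actin nucleator gene Lmod2 at 4.23, 72.4 and 194 CPM. For calcium handling 9 of 17 passed, and 3 of 15 without those cells, and for muscle energy metabolism 8 of 11 and 2 of 10. Ckm, muscle creatine kinase, was at 6.25 CPM in sarcomere-poor and 165 CPM in sarcomere-rich members. In the acetylcholine receptor and synapse list 3 of 8 passed, and 2 of 8 without the sarcomere-rich cells. Dok7, an activator of the receptor kinase MuSK, was at 13.6, 52.3 and 78.5 CPM, with 48.1 CPM in sarcomere-poor members.

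Fusion of myoblasts needs the membrane proteins myomaker and myomixer, encoded by Mymk and Mymx. Mymk was at 397, 408, 399 and 400.2 CPM in the members, 83.7 to 90.4 CPM in Myog-low and 1275 to 1283 CPM in Myog-high cells, so every file of the members lay between the groups. In sarcomere-poor members it was 248 CPM, 1.49 above Myog-low cells on the log2 scale. Mymx stood at 8.33, 73.4 and 452 CPM, with 45.7 CPM in sarcomere-poor members. Jam3, an adhesion gene, was at 85.6, 181 and 294 CPM, and the cadherin gene Cdh15 at 97.6, 94.3 and 68.7 CPM. Of 15 fusion and adhesion genes, 5 were at least 2-fold higher and 1 lower than in Myog-low cells, and without the sarcomere-rich members 4 and 0 of 14 were.

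**Figure D3:**
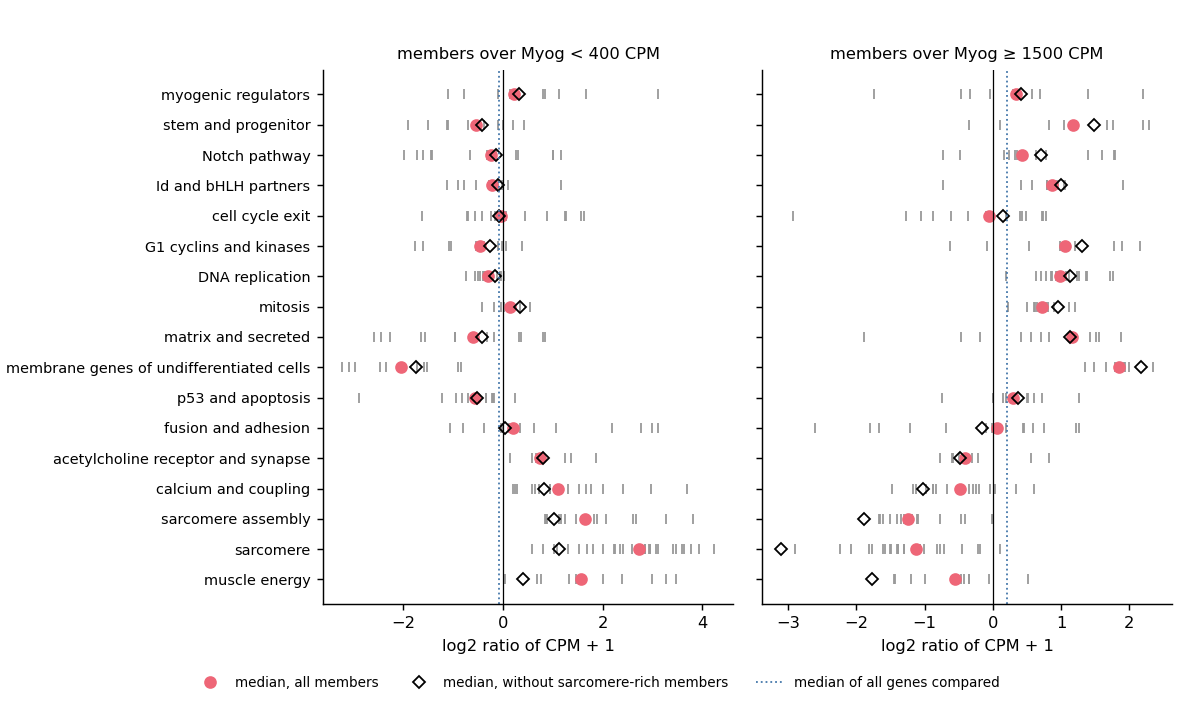
Log2 ratios of CPM plus 1 for the members over Myog-low cells (left) and over Myog-high cells (right), by gene list. Grey ticks are genes, red points the medians of all 236 members, open diamonds the medians without the 47 sarcomere-rich members, and the dotted line the median of all genes compared (-0.08 and 0.21). For the sarcomere list the median over Myog-low cells is 2.72 with and 1.11 without these cells, whereas for membrane genes of undifferentiated cells it is -2.05 and -1.74.

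To compare the progress of genes that go down and genes that go up, each level was placed on the log2 difference from Myog-low to Myog-high cells. For 555 genes at least 4-fold lower in Myog-high cells, the members had covered a median of 48.3% of the difference, and the sarcomere-poor members 41.3%. For 383 genes at least 4-fold higher, the medians were 59.2% and 29.2%. The rising set holds 26 sarcomere genes, whose sum chose the cells left out, so its lower median without them is in part fixed by that choice. At least 50% was covered by 165 of the 555 genes going down and by 72 of the 383 going up in sarcomere-poor members. Both sets were picked by the same Myog-low and Myog-high cells that set the scale, so these shares are descriptions.

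Single genes ranged widely within both sets. Among those lower with Myog, sarcomere-poor members had covered 79.0% of the difference for Cdh6, 61.9% for Hes1, 50.9% for Spp1 and 44.8% for Ccnd1, but 39.0% for Pax7, 21.8% for Ror1 and 5.64% for Cdc6, a replication licensing gene. Among those higher with Myog, the shares were 71.6% for Dok7, 65.2% for Gadd45a, 50.9% for Rb1, 38.7% for Mymk, 32.3% for Cdkn1a, 31.9% for Acta1 and 10.3% for Actc1. Hes1 and Dok7 were thus nearer to their Myog-high levels than Pax7 and Cdkn1a.

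**Figure D4:**
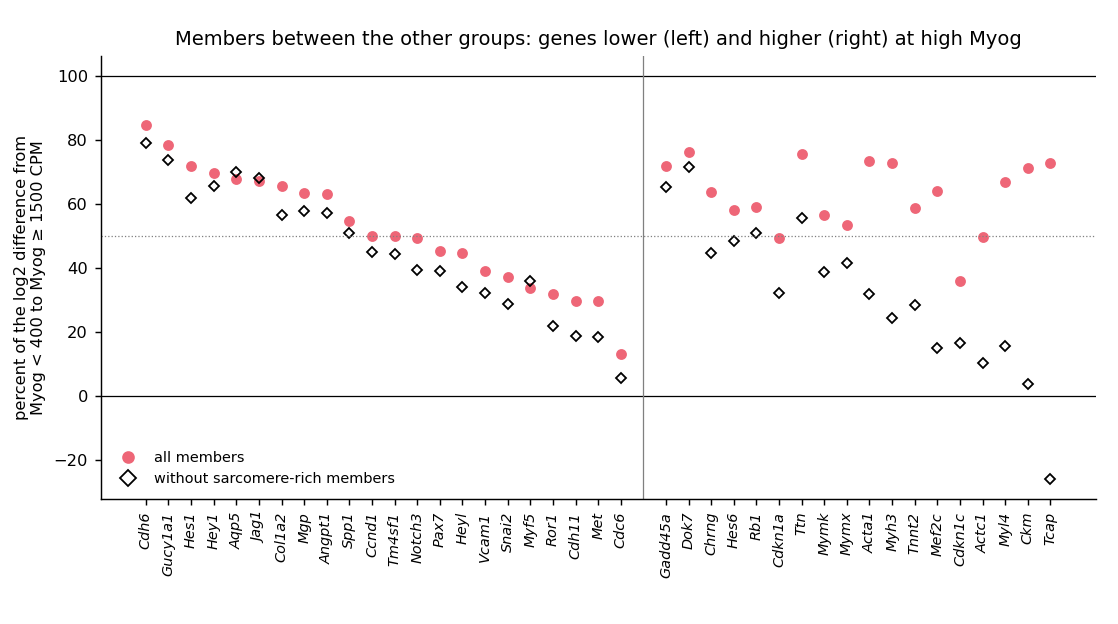
Percent of the log2 difference from Myog-low (0) to Myog-high cells (100) reached for 40 genes (vertical axis), for all members (red points) and for sarcomere-poor members (open diamonds). Genes lower with Myog are left of the grey line and genes higher with Myog right of it; Ttn is at 75.7% and 55.5%, and Mef2c at 64.2% and 14.9%.

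A small set of genes was higher in the members than in both Myog-low and Myog-high cells. At least 1.5-fold above both other groups were 33 of 11697 genes (0.282%), and at least 1.5-fold below both 34 (0.291%). With median-ratio size factors 13 were above both, and without the sarcomere-rich members 50 were. The 10 highest were Nos1, Vstm4, Gramd1b, Prkcq, Mlip, Fibin, Arnt2, Mamstr, Igf1 and Alpk2. Of these, 7 passed with median-ratio size factors, 6 without the sarcomere-rich members, and 5 (Nos1, Vstm4, Gramd1b, Arnt2 and Mamstr) passed both changes made singly. Cycling cells of the same Myog range had no part in this choice. They had 10.8 CPM of Vstm4, near the 12.6 CPM of the members. For Nos1, Gramd1b and Arnt2 they had 17.4, 69.3 and 23.3 CPM, beside 38.9, 102 and 31.7 CPM in the members.

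Nos1, the neuronal nitric oxide synthase gene (chromosome 5, 117781032 to 117958840), was at 40.4, 32.5, 45.1 and 37.7 CPM in the members. It was at 14.8 to 17.8 CPM in Myog-low and 15.4 to 17.2 CPM in Myog-high cells, below every file of the members. The log2 ratios were 1.18 (0.82 to 1.55) and 1.21 (0.90 to 1.52), and sarcomere-poor and sarcomere-rich members had similar levels of 38.6 and 39.7 CPM. Gramd1b, whose product moves cholesterol between membranes (chromosome 9, 40293233 to 40531383), was at 108, 105, 92.3 and 104 CPM in the members, 51.6 to 54.8 CPM in Myog-low and 44.2 to 48.8 CPM in Myog-high cells. It was at 120.5 CPM in sarcomere-poor and 52.0 CPM in sarcomere-rich members. Mamstr, a coactivator of MEF2 proteins, was at 22.4, 37.4 and 20.4 CPM, and the growth factor gene Igf1 at 24.0, 43.9 and 26.5 CPM. Mlip differed in kind, at 5.14 CPM in sarcomere-poor and 23.2 CPM in sarcomere-rich members, beside 4.88 CPM in Myog-high cells.

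Against Myog-high cells, 760 genes were at least 2-fold higher and 406 at least 2-fold lower in the members. With median-ratio size factors the counts were 390 and 579, so the share of higher genes went from 65.2% to 40.2%. Without the sarcomere-rich members they were 1011 (9.45%) and 660 (6.17%) on CPM. There too the larger side changed with median-ratio size factors, to 556 higher and 870 lower. Among the 10 highest were Vav3, Csf1, Arhgap22, Nrp2, Tm4sf1, Pde4b, Rnf180, Pax7 and Pcdh15. Each of these named genes was higher still in Myog-low cells. Csf1, a macrophage growth factor gene, was at 273, 92.0 and 16.5 CPM. The 10 lowest were Drd4, Kremen2, Il17b, Cdkn1c, Actc1, Smim6, Ccdc88b, Chst13, Mymx and Folr1. Drd4, a dopamine receptor gene, was at 0.761, 3.13 and 41.6 CPM and Actc1, cardiac actin, at 59.3, 435 and 3250 CPM.

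The sarcomere-rich members were then set beside Myog-high cells. In them 29 of 30 sarcomere genes were within 2-fold of the Myog-high level, as the limit fixes in part, with Actc1 the exception at 1386 CPM. Of 10517 genes compared, 225 (2.14%) were at least 2-fold higher and 231 (2.2%) lower than in Myog-high cells. With median-ratio size factors the counts were 164 and 322, so the near balance held on CPM only. Myf5 had the highest ratio, at 52.4, 68.8, 56.2 and 61.6 CPM against 9.92 to 11.5 CPM in Myog-high cells, with no overlap and a log2 ratio of 2.38. Doublet scores were among the highest 5% in 14.9% of sarcomere-rich members and 2.73% of Myog-high cells. Median depth was 14837 and 11107 UMIs per file. The part of doublets and depth in this comparison was not tested. Casq1, the calsequestrin gene of fast fibres, was at 39.9 against 7.28 CPM, Ckmt2, a mitochondrial creatine kinase gene, at 19.6 against 3.47 CPM, and Myot, a Z-disc gene, at 43.0 against 10.5 CPM. Among the lowest were Kremen2 (1.63 against 19.8 CPM), Il17b (2.01 against 15.1 CPM) and Spg21 (75.5 against 435 CPM). Spg21 was 80.8 CPM in sarcomere-poor members and 53.3 CPM in Myog-low cells, so both sets of members were below the Myog-high group as summed levels.

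**Figure D5:**
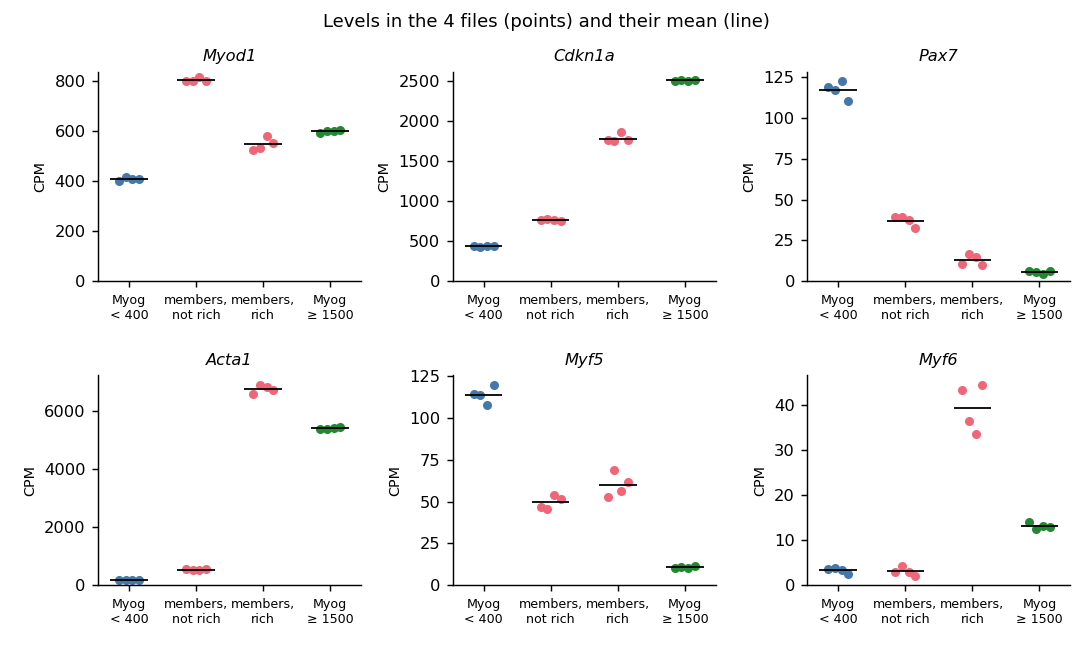
Levels in CPM (vertical axes) of 6 genes in the 4 files (points) and their mean (lines) for Myog-low cells, sarcomere-poor (not rich) members, sarcomere-rich members and Myog-high cells. Myod1 is highest in sarcomere-poor members (806 CPM), and Myf6 (39.4 CPM) in sarcomere-rich ones.

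Cells of the same Myog range that were cycling numbered 284, so that 54.6% of the 520 cells in that range with enough Malat1 were over the limit of Mki67 and Top2a. By phase scoring, 94.9% of the members were in G1 (91.3% to 97.3%), 3.39% in S and 1.69% in G2/M, beside 15.5% in G1 for the cycling cells. Of 8968 genes, 151 (1.68%) were at least 2-fold higher and 535 (5.97%) lower in the members than in these cycling cells. All 19 DNA replication and 18 mitosis genes compared were at least 2-fold lower, as the limit would choose, with medians of -2.03 and -3.84. Among sarcomere-poor members, 70 of 8729 genes (0.802%) were at least 2-fold higher and 505 (5.79%) lower. Cdkn1a was at 764 CPM in sarcomere-poor members and 692 CPM in the cycling cells, Mymk at 248 and 237 CPM, Ccnd1 at 113 and 143 CPM and Acta1 at 525 and 601 CPM. Myod1 was at 806 and 617 CPM. Among the cycling cells 17.6% had high doublet scores, whose part in these values was not tested.

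Cells were placed by their 15 nearest neighbours in a space built without Myog, Malat1, Mki67 and Top2a. Most neighbours of members were not members themselves, though members were more frequent there than among kept cells. On average 24.7% of a member's neighbours were members (19.3% to 30.7%), beside 4.31% of kept cells. Myog-low cells made up 21.5% of neighbours, beside 14.6% of kept cells, and Myog-high cells 40.5%, beside 32.1%. Cycling cells made up 12.1% of neighbours, beside 40.5% of kept cells. Of the 47 sarcomere-rich members, 46 had mostly Myog-high neighbours. The sarcomere genes whose sum chose these cells were not left out of the space. This placement is therefore in part fixed by the choice. Among the 189 sarcomere-poor ones, 52 had mostly Myog-high, 39 mostly Myog-low and 10 mostly member neighbours. Such majorities also depend on the sizes of the groups.

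Within the sarcomere-poor members, genes differed over the Myog range. From 400 to 700, 700 to 1000 and 1000 to 1500 CPM of Myog there were 63, 51 and 75 such cells. Myod1 was at 762, 809 and 837 CPM in the 3 bins, with overlapping intervals. Acta1 was at 318, 489 and 709 CPM with intervals that did not overlap (276 to 364, 433 to 549 and 653 to 767). These intervals cover counting error only and not the spread between cells. Over all sarcomere-poor members the median cell had 151 CPM of Acta1 and the 95th percentile was 2050 CPM. Acta1 is also part of the sum that chose these cells. Id3 was at 989, 894 and 751 CPM, and Spp1, which is lower in Myog-high cells, at 171, 262 and 318 CPM. Spp1 was uneven between cells, with 50.7 CPM in the median sarcomere-poor member and 966 CPM at the 95th percentile. In the median cell of all members it was 26.6, 42.7 and 50.5 CPM in the 3 bins. Hes6 was level, at 725, 715 and 729 CPM, as was Mef2c at 53.9, 50.2 and 62.7 CPM with overlapping intervals. Sarcomere-rich cells made up 5 of 68 members in the lowest bin (7.35%), 13 of 64 in the middle (20.3%) and 29 of 104 in the highest (27.9%).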

How the data were processed

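Droplet single-cell RNA sequencing of MyoD-tdTomato high cells gave 1 matrix per replicate. Each deposited matrix gives raw counts of UMIs by gene and barcode, and the authors made it with Cell Ranger 7.1.0 according to its header (per the file headers, no normalization), whereas the submitters' processing notes name Cell Ranger 3.1.0 and the builds mm10 and GRCm39. The build of these counts and the treatment of intronic reads are not given in the sources used here. Coordinates are from GENCODE M21 (32158 of 32285 identifiers matched).

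Cell selection used counts summed over the files. Because the files share cells, group levels were computed per file and averaged. Ratios are on log2 of CPM plus 1, over genes with a mean of at least 50 UMIs per file in the groups compared. A gene counted as at least 2-fold different had to pass on the mean and have 1 sign in all 4 files. Intervals (95%) are exact Poisson, Clopper-Pearson binomial or conditional binomial and cover counting error only, apart from that of the neighbour share. Sequenced depth limits low genes: a count of 0 allows up to 3 UMIs per file. Neighbours used 2000 variable genes and 30 principal components (scanpy 1.11.5). Scrublet marked 0 of 5481 cells by its own threshold, so its calls were not used, no cell was removed, and the highest 5% of scores were set aside as an alternative.

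Named genes were the 10 highest and 10 lowest against each other group, the 10 highest relative to both, and extremes of the lists. Some genes of these sets are not reported here. Other list genes, and those of the sarcomere-rich and cycling comparisons, were named after their values had been seen. The members and lists were chosen with earlier results of these data known. Alternatives were other cell, Myog and cell cycle limits, other scalings, pseudocounts and minimum counts, and leaving out each replicate.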

Additional observations from a re-analysis of the deposited data

Results flagged for a closer look

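A single replicate stood apart from the other 3 in 4 of the 65 values checked, where chance alone gives about 1 in 20. Gramd1b over Myog-low cells had a log2 ratio of 0.77 in replicate 3, beside 0.97 to 1.01 in the others. Alpk2 over Myog-low cells had 0.98 in replicate 3, beside 1.33 to 1.36. The ratio of Nrp2 over Myog-high cells was 2.66 in replicate 2 and 2.24 to 2.31 elsewhere, and that of Arnt2 was 1.37 in replicate 1 and 1.21 to 1.24 elsewhere. Each kept its sign in all 4 files.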

How the results depend on the processing

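No paired analysis was possible because the 4 replicates hold the same cells of 1 group. The alternative without the sarcomere-rich members was chosen after seeing the data. Of 182 comparisons with an alternative, 148 stayed near the reported value, 34 moved and 0 reversed. Near meant within 1.5-fold for numbers of genes, a wide limit, and inside the reported value's interval for the rest. Only the log2 ratios of Cdkn1a and Myod1 could be labelled reversed, and counts and percents could not. Against Myog-high cells, 760 genes were higher and 406 lower on CPM. With median-ratio size factors 390 were higher and 579 lower, so the larger side changed.

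The number of members was 186 with at least 2000 genes and under 5% mitochondrial counts, 151 with Myog from 500 to 1200 CPM, 171 with Mki67 and Top2a under 25 CPM and 189 without the sarcomere-rich cells. Leaving out single replicates gave 230 to 245. Genes at least 2-fold higher than in Myog-low cells numbered 503 with a minimum of 5 UMIs and 185 without the sarcomere-rich cells, and genes lower 249 on CPM plus 5 and 753 with the minimum of 5. Against Myog-high cells, 390 were higher with median-ratio size factors and 322 on CPM plus 5, while 236 were lower on CPM plus 5 and 660 without the sarcomere-rich cells. Genes above both groups numbered 53 with the narrower Myog range, 13 with median-ratio size factors, 12 on CPM plus 5, 54 and 74 with minimums of 20 and 5 UMIs, and 50 without the sarcomere-rich cells.

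The log2 ratio of Cdkn1a over Myog-low cells was 1.15 with the stricter cell filter and 0.82 without the sarcomere-rich cells. Over Myog-high cells it was -1.35 with the stricter filter, -1.36 with the narrower range, -1.54 with median-ratio size factors, -1.37 as a mean over cells and -1.71 without the sarcomere-rich cells. For Myod1 over Myog-low cells it was 0.95 as a mean over cells and 0.97 without the sarcomere-rich cells. Over Myog-high cells it was 0.036 with median-ratio size factors and 0.42 without the sarcomere-rich cells. The median sarcomere gene stood at 45.3% of its Myog-high level, 37.1% with the stricter filter, 46.6% to 51.5% without single replicates and 11.5% without the sarcomere-rich cells. The share of member neighbours was 17.1% with the narrower Myog range. Except where fewer cells or genes entered by construction, the cause was not tested. Depth limits genes of a few UMIs per file, and variation between animals, cultures and sorts could not be measured with 1 sample.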
